A study of Homo sapiens with 46 samples.

Results

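The 32 genes described here are transcriptional targets of p53, chosen by name from textbook target genes, with earlier results of these data known but by no threshold on a measured value, out of 58735 genes counted. All 32 were among the 20272 genes that carried enough counts to be tested. RNA-seq was performed on HEK293T cells, which the study's methods describe as HEK293-Flp-In T-REx, a line from human embryonic kidney, to ask how the nuclear transcriptome answers when single mRNAs of mitochondrial DNA (mtDNA) are silenced. Cells were treated for 48 hours with 2 µM of a chimera in the presence of Endo-Porter, a peptide that helps cargo out of endosomes. Each chimera couples pCox4, a presequence from yeast that is imported into mitochondria, through a click reaction to a morpholino, which is an uncharged antisense oligomer. Control cells received the presequence in click buffer with no morpholino, so controls and treated cells share the line, the presequence and the wild-type genotype. There were 46 libraries of 12 conditions, 4 of the control and 4 of each treatment (complex I subunits ND1, ND3, ND4L and ND5, CYTB of complex III, COX1 and COX3 of complex IV, ATP6 and ATP8 of ATP synthase), except COX2 silencing, which lacks replicate 1, and ND2 silencing, which lacks replicate 2, with 3 libraries each. The study performed replicates 1 and 2 (batch 1) and replicates 3 and 4 (batch 2) on separate days and with separate batches of reagents.

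p53 is a transcription factor that is held at a low level by the ubiquitin ligase MDM2 and accumulates after DNA damage, loss of nucleotides, ribosome defects and other stress. It then binds a pair of decameric half-sites near its target genes, which arrest the cell cycle, repair DNA, adjust metabolism or start apoptosis, and which include its own inhibitors. HEK293 lines express adenoviral E1 proteins, of which E1B binds p53, and derivatives with the large T antigen of SV40 carry another p53-binding protein, which limits such lines as models of p53 signalling. Whether the line used here carries the large T antigen is not settled by its name and the description in the study's methods. Here only transcripts were measured, in bulk RNA, where fewer cells with a transcript and less of it per cell cannot be told apart.

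The 2 chimeras after which a member was called in the main test described below carry these morpholinos, read 5′ to 3′. Capitals mark bases complementary to the start codon of the targeted mRNA.
COX2: cctacttgcgctgcatgtgcCAT
COX3: catgtgattggtgggtCA
The COX2 morpholino has 23 bases and is complementary to bases 1 to 23 of MT-CO2, at chrM:7586-7608 of the plus strand, and the COX3 morpholino has 18 bases and is complementary to bases 2 to 19 of MT-CO3, at chrM:9208-9225 (GRCh38), both in the coding exon. The longest stretch of a member's GENCODE 29 transcripts that could pair with the COX3 morpholino without a mismatch ran from 5 to 11 bases over the 32 members. It was 6 bases for BTG2, 8 for SESN1 and 11 for TP53INP1, and 0.58% of 19669 protein-coding genes have a stretch of at least 11. For the COX2 morpholino it ran from 6 to 10 bases, with 6 for BTG2. Whether such pairing matters for a transcript was not tested.

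RefSeq promoter windows (GRCh38.p14, 250 bases before to 50 after a start site) were found for 25 of the 32 members. The p53 half-site consensus of 10 bases, which reads the same on both strands, had an exact match in a window of 6 of these 25 members (24%), against 8.06% of all 27305 genes with a window. Counted by window, it was in 6 of 36 member windows (16.7%) and in 6.63% of all 35116. With up to 1 mismatch, not allowed at the fixed C and G of the consensus, it was in windows of 14 members (56%) and of 50.1% of all genes. The exact matches are printed in capitals within 30 bases. The members were not chosen by such a match.
AEN: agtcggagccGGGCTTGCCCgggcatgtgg
DDB2: ggtttGAACAAGCCCtGGGCATGTTTggcg
FAS: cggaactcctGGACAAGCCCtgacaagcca
FDXR: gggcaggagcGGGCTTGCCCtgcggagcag
PLK2: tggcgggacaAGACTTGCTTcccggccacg
SESN1: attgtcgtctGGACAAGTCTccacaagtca
They lie at chr15:88621296-88621325 (AEN, plus strand), chr11:47214974-47215003 (DDB2, plus), chr10:88991299-88991328 (FAS, plus), chr17:74872986-74873015 (FDXR, minus), chr5:58460199-58460228 (PLK2, minus) and chr6:109009018-109009047 (SESN1, minus, at 1 of its 3 start sites). Counted from the start site, the half-site begins at base -34 in AEN, -122 in FAS, -11 in FDXR, -132 in PLK2 and -49 in SESN1, while DDB2 has 2 of them, which begin at bases 6 and 17 of the transcript and are separated by a single base. Like SESN1, FAS holds an exact match in only 1 of 3 windows, and DDB2 and FDXR in only 1 of 2. The windows of CDKN1A and BTG2 hold no match, even with 1 mismatch outside the fixed C and G. Sequence outside the windows was not searched, so a gene without a match may hold a site elsewhere. A match is a description of these letters and not a measurement of binding.

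A library held 18876395 to 100698084 counts (median 23413171), and of all libraries only COX3 replicate 4 exceeded 28121898. The least abundant member counts were 45 reads in a library (TIGAR) and 54 (SPATA18), so these 2 genes are the least precise. Of the 11 targeted mRNAs, 3 fell, 3 rose and 5 did not pass the test, with COX3-silenced libraries at 67.2% to 75.7% of the MT-CO3 level in the control of their batch. The study reports that the chimeras act on translation, which it followed by labelling newly made mitochondrial proteins. The level of a targeted mRNA is therefore no measure of whether its silencing worked, and translation was not measured in these libraries. The markers of HEK293 cells KRT8, KRT18, VIM and NEFL were at 84.3 CPM or more (reads per 1e+06 counted, TMM-normalised) in every library, and PAX2, LHX1 and NEFM were at medians of 7.31, 3.07 and 0.971 CPM. Of 10 markers of liver, heart muscle, blood, gut and stem cells, 8 were at 0.598 CPM or less in every library, while CDX2 was at 8.7 to 14.6 CPM and POU5F1 at 1.04 to 3.04 CPM. The labels give the libraries as separate replicates without saying from which cultures, so p-values measure the spread between these libraries.

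The members spanned a wide range of levels in control cells. Per length, in CPM per kilobase of the gene (RPKM), PMAIP1, which encodes the BH3-only protein NOXA, was highest at 145 ± 1.91 RPKM (SD, n = 4), followed by CCNG1, which encodes the p53 antagonist cyclin G1, at 110.0 ± 2.2 RPKM and CDKN1A, which encodes the cyclin-dependent kinase inhibitor p21, at 56.8 ± 6.71 RPKM. The lowest were SPATA18, a factor in the elimination of damaged mitochondrial protein, at 0.885 ± 0.123 RPKM and TIGAR, a fructose bisphosphatase that lowers glycolytic flux, at 1.1 ± 0.148 RPKM. SPATA18 and TIGAR did not differ beyond the sum of their SDs, whereas PMAIP1, CCNG1 and CDKN1A were each separated from the next by more than that. The SD of SERTAD1, a regulator of E2F and CDK4, was 5.34 RPKM around a mean of 15.3 RPKM, the widest relative to its mean among the members.

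**Figure D1:**
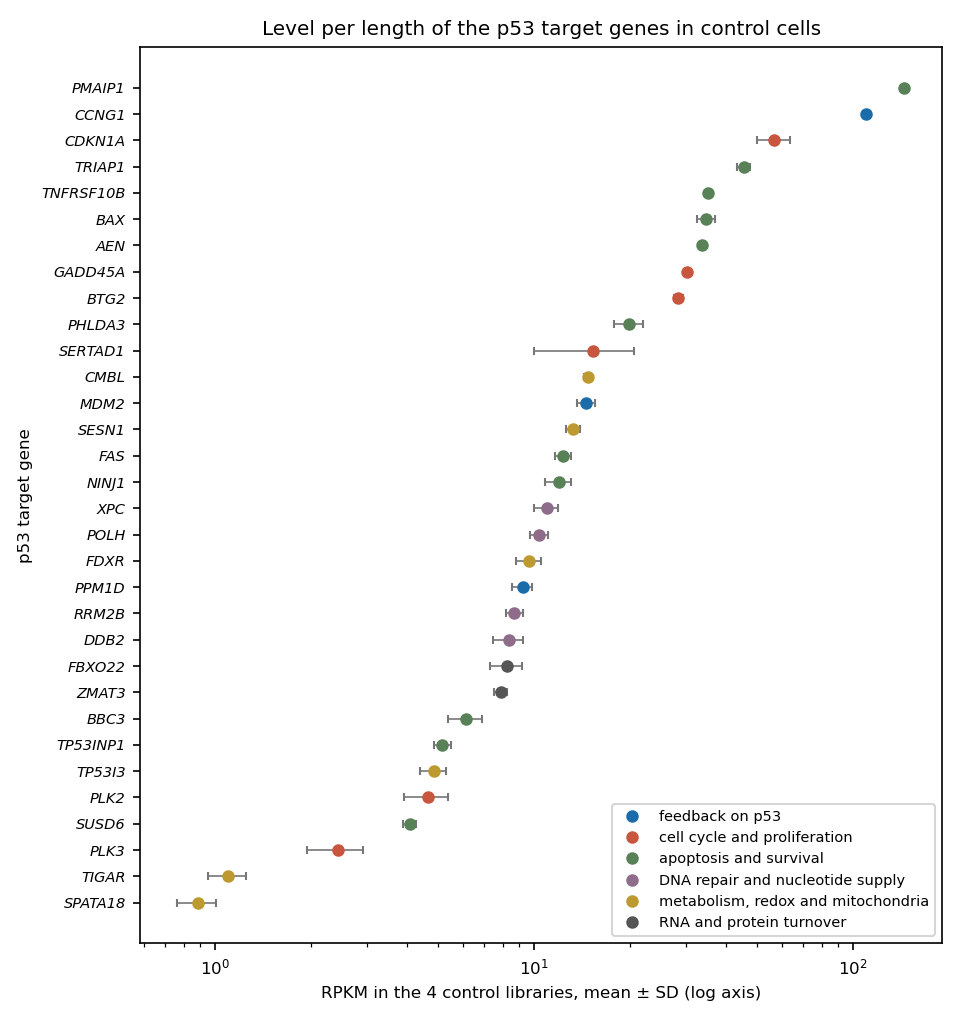
Level of each p53 target gene in the 4 control libraries on a log axis in RPKM, points giving the mean, bars the SD and colours the role. PMAIP1 and CCNG1 stand above 100 RPKM, and TIGAR and SPATA18 are near 1 RPKM.

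Silencing of single mtDNA-encoded mRNAs was accompanied by few and small differences in the p53 target genes. Each treatment was compared with the control in one edgeR quasi-likelihood fit with a term for the batch, and a gene was called at a Benjamini-Hochberg adjusted p under 0.05. Of 352 tests of a member in a treatment, 4 were called, and all 4 were lower than the control. They were BTG2 after COX2 and COX3 silencing and TP53INP1 and SESN1 after COX3 silencing. After COX3 silencing 3 of 32 members were called, where 0.306% of all 20272 genes were called in either direction, and after COX2 silencing 1 of 32, where 0.469% were. No member was called after the other 9 treatments, in which the share of all genes called was also low, at 0.00987% for ATP6, 0.0641% for ATP8, 0.0543% for COX1, 0.548% for CYTB, 0.0888% for ND1, 0.0247% for ND2, 0.00987% for ND3, 0.148% for ND4L and 0.158% for ND5. All comparisons share the same 4 control libraries. The 4 calls, made where 0.171% of all gene tests were called, became 7 without control replicate 1 (0.223%). They became 2 without control replicate 3 (0.0744%) or control replicate 4 (0.0337%). DESeq2 with the batch term made 14 calls of a member (0.784%), all of them lower.

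**Figure D2:**
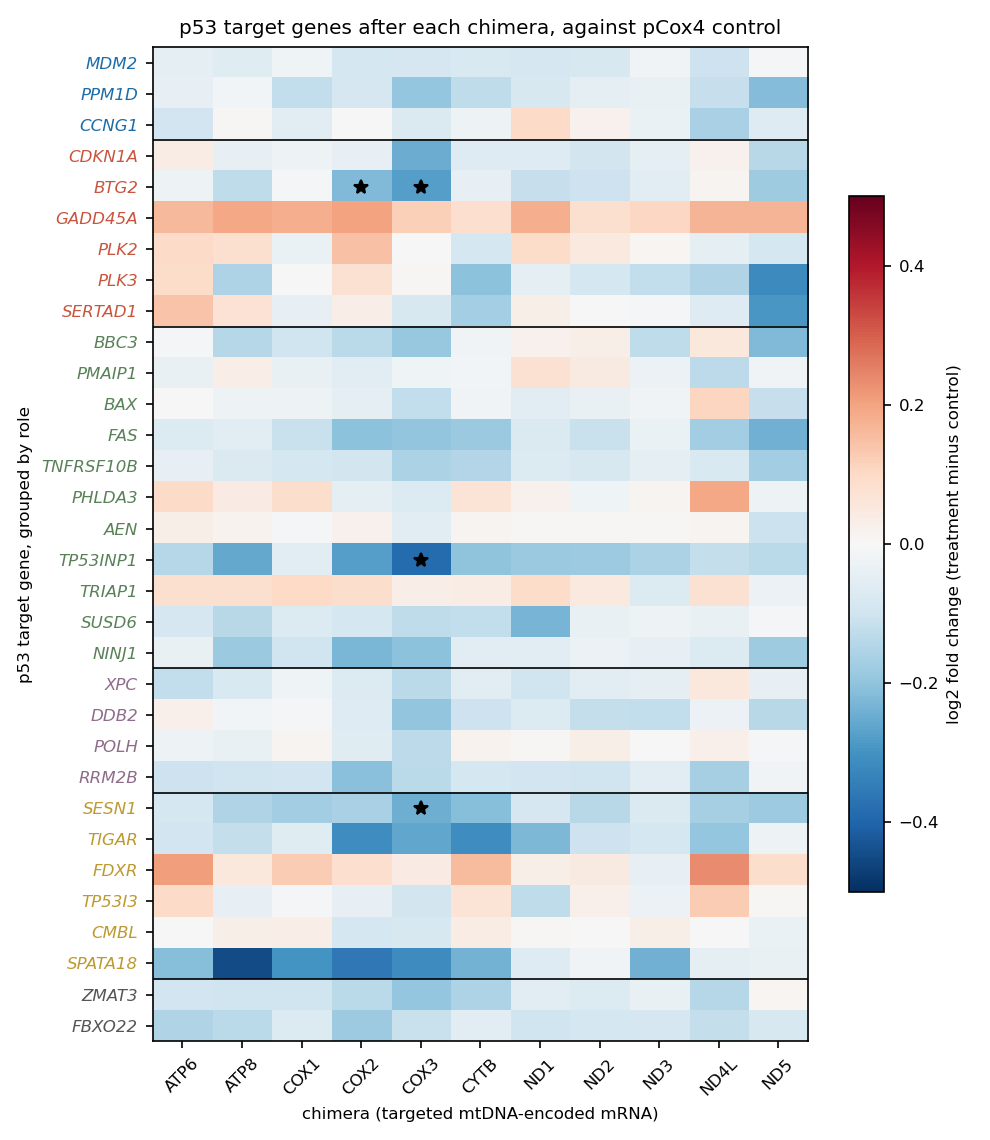
Log2 fold change of the 32 p53 target genes (rows, grouped by role and separated by lines) in each of 11 treatments against the control (columns), with stars at an adjusted p under 0.05. Stars stand at BTG2 after COX2 and COX3 silencing and at TP53INP1 and SESN1 after COX3 silencing, and GADD45A is above 0 in all 11 columns.

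BTG2, an antiproliferative cofactor of the CCR4-NOT deadenylase (ENSG00000159388, chr1:203305491-203309602, plus strand), fell most clearly. Its 4 control libraries, in the order of replicates 1 to 4, stood at 79.1, 75.1, 81.2 and 77.8 CPM, and the 4 COX3-silenced libraries at 62.4, 64.5, 64.6 and 66.5 CPM. Every COX3-silenced library was lower than every control library. The log2 fold change was -0.28 (standard error 0.0455, adjusted p = 0.000696), or 82.5% of the control level. It was -0.28 in each batch by the library means. After COX2 silencing, replicates 2, 3 and 4 had 71.2, 65.0 and 65.2 CPM, again without overlap with the control, which gave -0.22 on the log2 scale (standard error 0.0498, adjusted p = 0.0253). The single COX2 library of batch 1 was lower by 0.11 on the log2 scale and the batch 2 pair by 0.29. The call after COX3 silencing was made with each of the 46 libraries left out in turn. The call after COX2 silencing was lost without control replicate 3 (adjusted p = 0.0762), control replicate 4 (adjusted p = 0.0984), COX2 replicate 3 (adjusted p = 0.231) or COX2 replicate 4 (adjusted p = 0.0563). It was also lost without a filter on low counts (adjusted p = 0.0787), without a batch term (adjusted p = 0.107), with only the libraries compared in the fit (adjusted p = 0.0524) and in each batch alone, 5 of 12 alternatives. After ND5 silencing BTG2 read 75.9, 67.5, 67.0 and 66.2 CPM, of which replicate 1 was within the control range, and the difference of -0.18 on the log2 scale (adjusted p = 0.0922; standard error 0.0458) did not pass the threshold, but did with DESeq2 and without ND5 replicate 1.

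TP53INP1, a stress-induced protein of autophagy and p53 activation (ENSG00000164938, chr8:94925972-94949411, minus strand), had the largest fold change among the 4 calls. Its control libraries were at 29.7, 31.2, 26.9 and 29.7 CPM and its COX3-silenced libraries at 20.96, 22.78, 24.28 and 22.36 CPM, with no overlap. The log2 fold change was -0.39 (standard error 0.0746, adjusted p = 0.00652), or 76.5% of the control level, and by batch means it was -0.48 in batch 1 and -0.28 in batch 2. The call was made with each library left out in turn, with the highest adjusted p = 0.0494 without control replicate 2. After COX2 silencing the 3 libraries stood at 23.1, 23.2 and 27.2 CPM, of which replicate 4 was within the control range, and the difference of -0.28 did not pass the test (adjusted p = 0.0959), though it did with DESeq2 and without COX2 replicate 4.

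SESN1, a sestrin that restrains mTORC1 and oxidative stress (ENSG00000080546, chr6:108986437-109094819, minus strand), was also lower after COX3 silencing. Control libraries were at 66.6, 64.3, 70.7 and 71.1 CPM and COX3-silenced libraries at 56.3, 57.4, 60.6 and 56.0 CPM, without overlap. The log2 fold change was -0.25 (standard error 0.0549, adjusted p = 0.0271), with -0.20 in batch 1 and -0.28 in batch 2. This call was lost without control replicate 1 (adjusted p = 0.0519), control replicate 3 (adjusted p = 0.0872), control replicate 4 (adjusted p = 0.146), COX3 replicate 1 (adjusted p = 0.104), COX3 replicate 2 (adjusted p = 0.053) or COX3 replicate 4 (adjusted p = 0.0811). After CYTB silencing SESN1 stood at 56.0, 56.3, 61.6 and 61.4 CPM, all lower than the control libraries, but the difference of -0.21 missed the threshold (standard error 0.0555, adjusted p = 0.0513), which it passed in 4 of 12 alternatives, with the replicate number as a block (adjusted p = 0.0396), DESeq2 (adjusted p = 0.0169), a minimum count of 50 (adjusted p = 0.0398) or only the libraries compared (adjusted p = 0.0142). The calls of TP53INP1 and SESN1 after COX3 silencing were lost without a batch term (adjusted p = 0.226 and 0.231) and in each batch alone.

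CDKN1A, the best known p53 target (ENSG00000124762, chr6:36676460-36687339, plus strand), was not called in any treatment in the main test. Its control libraries read 183.7 and 191.8 CPM in batch 1 and 145.0 and 172.7 CPM in batch 2, and its COX3-silenced libraries 159.6 and 166.6 CPM in batch 1 and 120.8 and 137.8 CPM in batch 2. The groups overlapped over all libraries but not within a batch. The log2 fold change after COX3 silencing was -0.25 (standard error 0.0628, adjusted p = 0.0639), and it passed the threshold in 4 of 12 alternatives, with the replicate number as a block in place of the batch (adjusted p = 0.0255), with DESeq2 (adjusted p = 0.0235), without a filter on low counts (adjusted p = 0.00507) and with a trend on gene length removed (adjusted p = 0.0295). In the other 10 treatments CDKN1A lay between -0.14 (ND5) and 0.04 (ATP6) on the log2 scale. Over the mean of the 11 treatments it was at -0.06, with a 95% interval from -0.16 to 0.03, and at -0.01 without control replicate 4 and -0.10 without control replicate 3.

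**Figure D3:**
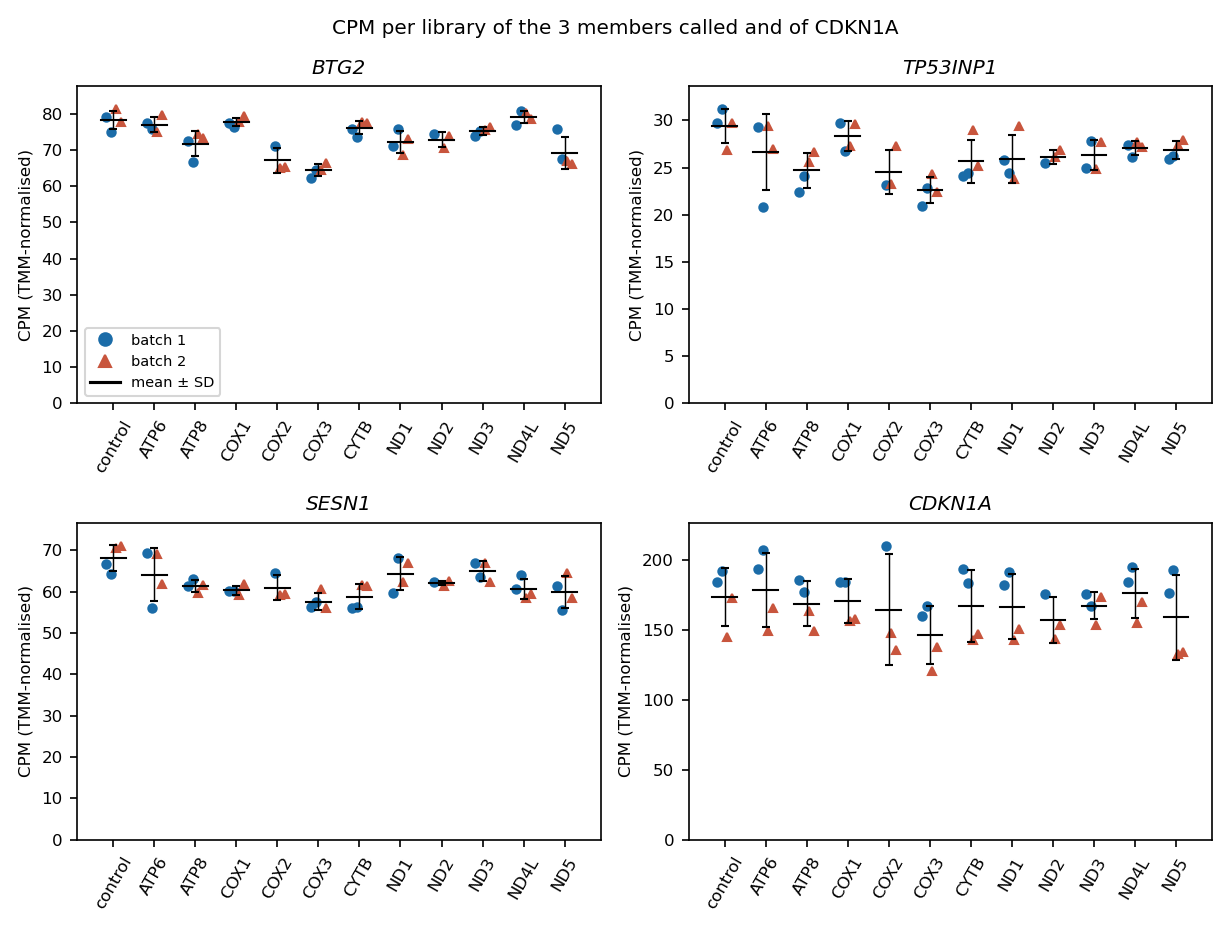
CPM of BTG2, TP53INP1, SESN1 and CDKN1A in each of 46 libraries, circles for batch 1 and triangles for batch 2, with lines for the mean and bars for the SD of a condition. COX3-silenced libraries sit below the control libraries for the first 3 genes, and the mean of CDKN1A is lower in batch 2 than in batch 1 in every condition.

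Among the genes that feed back on p53, none was called in a treatment in the main test. MDM2, the ubiquitin ligase that degrades p53 (ENSG00000135679), read 181, 185, 203 and 206 CPM in the control and 184, 179, 208 and 161 CPM after COX3 silencing, and the groups overlapped. Its log2 fold change was -0.09 (standard error 0.0571, adjusted p = 0.652), but -0.02 without COX3 replicate 4 and -0.14 without COX3 replicate 3, and by batch means -0.01 in batch 1 and -0.16 in batch 2. It ranged only from -0.10 (ND4L) to -0.01 (ND5) over the 11 treatments. PPM1D, the phosphatase WIP1 that removes activating phosphates from p53, was below 0 in all 11 treatments, from -0.21 (ND5) to -0.01 (ATP8). DESeq2 called PPM1D lower after COX3 and ND5 silencing, and edgeR called it after ND5 silencing with a minimum count of 50 and without control replicate 1. CCNG1 was between -0.16 (ND4L) and 0.10 (ND1).

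The other cell cycle and proliferation genes lay on both sides of the control, and none was called against it. GADD45A, which binds PCNA and p21 in growth arrest and repair, was the one member above 0 in all 11 treatments, between 0.08 (ND2) and 0.20 (COX2). Its control libraries lay between 61.1 and 64.3 CPM, and 40 of 42 treated libraries were at or above the control mean of their batch, so that the groups overlapped only in part. It was not called in any treatment. The polo-like kinase PLK3 and SERTAD1 had their lowest values after ND5 silencing (-0.32 and -0.29) and their highest after ATP6 silencing (0.09 and 0.14), and PLK2 lay between -0.09 (ND5) and 0.15 (COX2).

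Of 11 apoptosis and survival genes, 9 were below 0 in the mean of the treatments, and the main test called TP53INP1 alone in a treatment. DESeq2 also called TNFRSF10B lower after COX3, CYTB and ND5 silencing, FAS lower after ND5 silencing and TP53INP1 lower after COX2 silencing. With edgeR, FAS after ND5 silencing was called with only the libraries compared and without control replicate 1, as was FAS after CYTB silencing in the latter fit, and TNFRSF10B after ND5 silencing without ND5 replicate 1. The death receptor genes FAS and TNFRSF10B were below 0 in all 11 treatments, FAS between -0.24 (ND5) and -0.03 (ND3) and TNFRSF10B between -0.17 (ND5) and -0.04 (ATP6). So were SUSD6, which encodes a membrane protein, and NINJ1, which encodes the ninjurin that ruptures membranes in dying cells, at -0.23 to -0.01 and -0.23 to -0.03. The BCL-2 family genes lay on both sides of 0, BBC3 (PUMA) from -0.22 to 0.05, BAX from -0.12 to 0.11 and PMAIP1 from -0.13 to 0.08. The AKT repressor PHLDA3 (-0.07 to 0.19), the nuclease gene AEN (-0.11 to 0.03) and TRIAP1 (-0.07 to 0.10), which carries phospholipid into mitochondria, did so too.

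All 4 genes of DNA repair and nucleotide supply were below 0 in the mean of the treatments, and none was called. The damage sensors XPC and DDB2 and the translesion polymerase gene POLH had their lowest values after COX3 silencing, at -0.13, -0.20 and -0.13. RRM2B, the ribonucleotide reductase subunit that also supplies mtDNA synthesis with precursors, was below 0 in all 11 treatments, from -0.21 (COX2) to -0.02 (ND5).

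Genes of metabolism, redox balance and mitochondria held both the lowest and the highest of the 352 fold changes. SPATA18 and TIGAR were below 0 in all 11 treatments, reaching -0.45 (ATP8) and -0.31 (COX2), at a level where counts are few. FDXR, the ferredoxin reductase of mitochondria, was above 0 in 10 treatments, reaching the highest value, 0.24, after ND4L silencing (adjusted p = 0.195). TP53I3, a quinone oxidoreductase, lay between -0.13 and 0.13 and CMBL, a hydrolase, between -0.09 and 0.04. The 2 genes of RNA and protein turnover, ZMAT3, an RNA-binding splicing regulator, and FBXO22, a ubiquitin ligase subunit, had their lowest values at -0.19 (COX3) and -0.18 (COX2).

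The small differences leaned to one side. Of 352 fold changes 259 were below 0, while 48.7% to 50.9% of all genes tested were below 0 in a treatment. The median over the members was -0.13 after COX3 silencing, -0.08 after COX2, -0.07 after ND5, -0.06 after CYTB and ND1, and between -0.05 and -0.03 after the other 6 treatments, and the median over all genes was 0.00 to 2 decimals in each. With 1 library of the treatment or the control left out, the medians stayed below 0 in all 11 treatments but moved, from -0.15 (without COX3 replicate 4) to -0.11 (without control replicate 4) after COX3 silencing, and by over 1.5 times towards 0 in 6 others: to -0.01 after ATP6 (without ATP6 replicate 3), to -0.02 after COX1 (without COX1 replicate 1) and ND3 (without ND3 replicate 1), to -0.03 after ND4L (without control replicate 1) and to -0.04 after CYTB and ND1 (without control replicate 4). Away from 0 they moved by over 1.5 times to -0.06 after COX1 (without COX1 replicate 3) and ND2 (without ND2 replicate 4). The median after COX2 silencing rests on batch 2, since it was 0.00 in batch 1, with 1 library, and -0.13 in batch 2, and it was at or above 0 in 1 of the 3 libraries. At an unadjusted p under 0.05 and in the lower direction, 12 of 32 members passed after COX3 silencing (4.74% of all genes), 11 after ND5 (4.53%), 9 after COX2 (6.16%), 8 after ND4L (6.99%), 7 after CYTB (6.01%) and 6 after ATP8 (4.02%). It was 3 members after ND1 (5.24%) and ND2 (2.57%), and 2 after ATP6 (3.69%), COX1 (2.86%) and ND3 (1.69%). In the higher direction it was 3 members after ND4L (7.11%), 2 after ATP6 (5.39%) and 1 each after ATP8 (6.21%), COX1 (4.58%), COX2 (7.42%), ND1 (6.47%) and ND5 (4.78%). None was higher after COX3 (5.65%), CYTB (7.66%), ND2 (2.34%) or ND3 (1.62%). Since the treatments share 4 control libraries, these counts do not add up as independent.

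In the mean of the 11 treatments against the control, 0 of 32 members were called, as 0.261% of all genes were. At an unadjusted p under 0.05, 9 members were lower (5.37% of all genes) and 1 higher, GADD45A (6.55%). DESeq2 with the batch term called 3, BTG2, TP53INP1 and SESN1, where it called 2.46% of the genes to which it gave an adjusted p. The lowest adjusted p was that of SESN1 (0.0718), at -0.15 with 39 of 42 treated libraries below the control mean of their batch. TP53INP1 (-0.19, adjusted p = 0.108) and GADD45A (0.15, adjusted p = 0.134) followed. MDM2 was at -0.06, with a 95% interval from -0.15 to 0.02, and at -0.04 without control replicate 4 and -0.09 without control replicate 1. The median over the members was -0.07, 27 of 32 were below 0, and the median over all genes was 0.00 to 2 decimals.

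BTG2 also differed among the treatments, in a test that does not use the control. It was the only member called for differences among the 11 treatments (adjusted p = 0.000118), where 0.306% of all genes were called, and 11 members passed at an unadjusted p under 0.05, against 10% of all genes. Its treatments ranged from -0.28 (COX3) to 0.02 (ND4L). In a comparison added after seeing the data, each treatment was set against the mean of the other 10. BTG2 was then lower after COX3 silencing by 0.19 on the log2 scale (adjusted p = 0.0041, with 0.0543% of all genes called) and SERTAD1 lower after ND5 silencing by 0.28 (adjusted p = 0.0441, with 0.774% called), and no other member was called.

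Some members also differed between the batches. This test sets 22 libraries against 24, many more than any treatment test, so its number of calls cannot be compared with theirs. Between batch 2 and batch 1, 14 of 32 members were called, a smaller share than the 57.1% of all genes. Of these 9 were lower in batch 2 (27.9% of all genes) and 5 higher (29.2%). SERTAD1 had 22 libraries at 37.0 to 51.4 CPM in batch 1 and 24 at 16.1 to 27.6 CPM in batch 2, without overlap, which is -0.93 on the log2 scale (standard error 0.04, adjusted p = 4.46e-26). CDKN1A was at 159.6 to 209.7 CPM in batch 1 and 120.8 to 173.2 CPM in batch 2 (-0.30, adjusted p = 3.42e-14), and PLK2 was lower by 0.27. FDXR (0.34), DDB2 (0.29), XPC (0.23) and PLK3 (0.23) were higher in batch 2. BTG2 (0.00), SESN1 (0.02) and TP53INP1 (0.07) were not called between the batches. What between the batches moves with these genes was not tested. No member's treatment effect was called as different between the batches, and neither was that of any other gene. Each treatment has 1 or 2 libraries in a batch, so this test has little power and does not show that the batches agree. At an unadjusted p under 0.05 the most members passed for ND3 silencing, 6 of 32, against 9.78% of all genes.

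**Figure D4:**
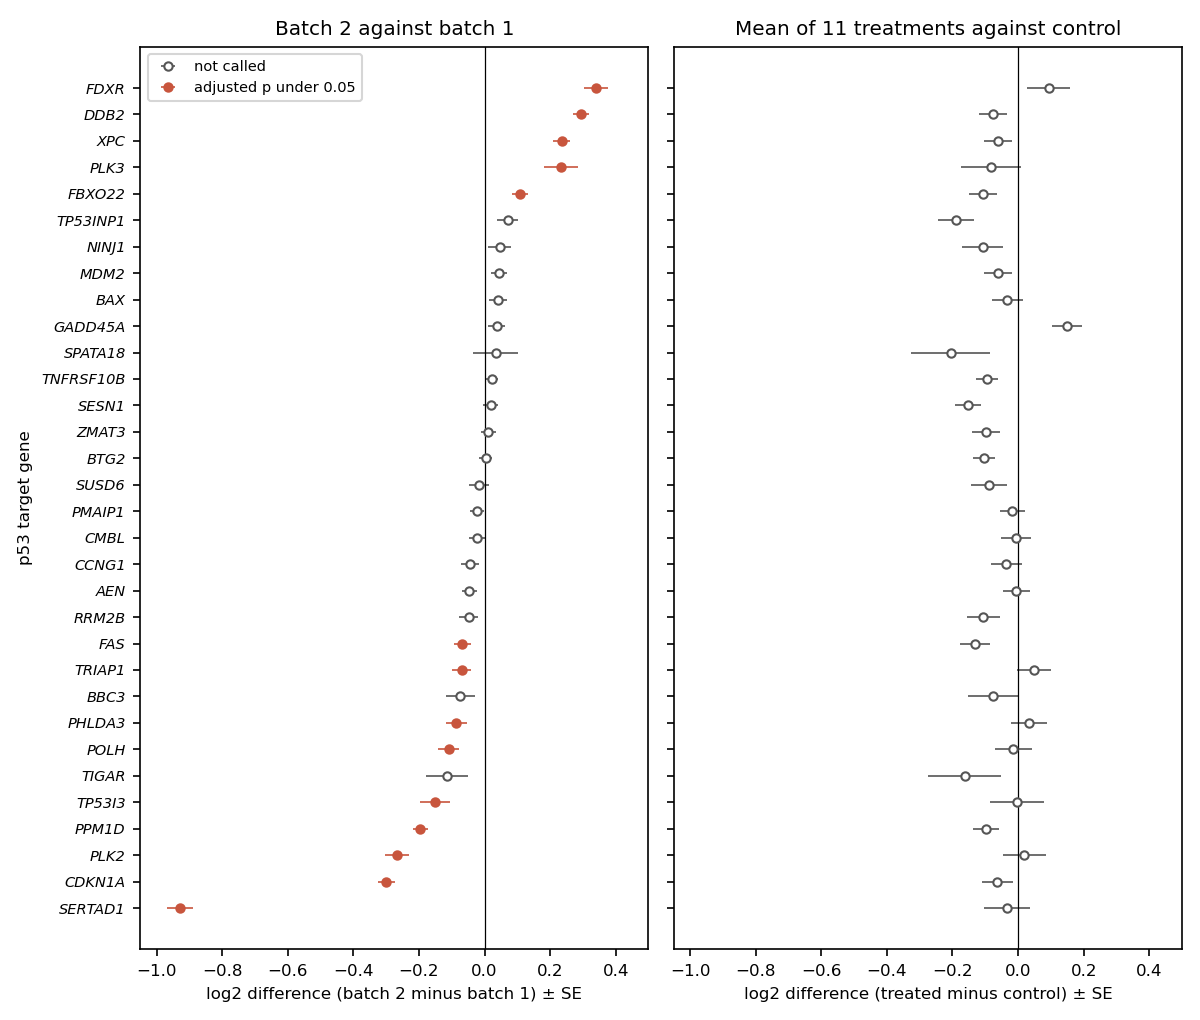
Log2 difference of the 32 p53 target genes between the batches (left) and between the mean of 11 treatments and the control (right), points with SE, filled at an adjusted p under 0.05. SERTAD1 stands at -0.93 between the batches, and no point is filled on the right.

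MDM4, which inhibits p53 beside MDM2, lay between -0.15 (ATP8) and 0.01 (ND5), was not called in any treatment, and was higher in batch 2 by 0.55. Of 35 tested genes of 40 other p53 targets, EPHA2, a receptor tyrosine kinase, was the only one called, after COX2 silencing, where 0.469% of all genes were called and where it read 43.2 ± 7.08 CPM (SD, n = 3), higher by 0.39 on the log2 scale (adjusted p = 0.0143) than the control libraries at 33.5 ± 1.79 CPM (SD, n = 4). The median of these other targets over the mean of the treatments was -0.02, and 21 of 35 were below 0, as were 50.6% of all genes. Of 32 cell cycle genes that p53 lowers through p21 and the DREAM complex, none was called in a treatment or in their mean, where 22 were below 0 and the median was -0.02. At an unadjusted p under 0.05, 10 of these were lower after ND4L silencing (6.99% of all genes) and 8 after COX2 (6.16%). It was 6 after ATP6 (3.69%) and CYTB (6.01%), and 5 after ND5 (4.53%), where 28 were below 0. In the higher direction, 3 passed after ATP8 (6.21%) and after ND1 (6.47%), where none was lower. PMAIP1, TNFRSF10B, BBC3 and GADD45A are members that ATF4 and CHOP, the factors of the integrated stress response, also induce, and of these 4 only GADD45A was above 0 in the mean of the treatments.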

How the data were processed

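RNA-seq libraries of poly(A)-enriched RNA from 46 HEK293T samples were analysed. The authors deposited raw counts of reads per gene, whole numbers without normalization, together with a gene length in bases. Their processing notes name R 4.3.0, DESeq2 1.40.2, limma 3.56.2 and the build GRCh38.p12; the aligner, the counter and the use of strand are not given in the sources used here, so reads of overlapping or antisense genes may be shared. Reads are single-end by the labels and paired-end by the paper. Every count column was assigned to its sample by name.

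The main test was the quasi-likelihood F test of edgeR 4.0.16 in R 4.3.3, after TMM normalization and filterByExpr with a minimum count of 10, in a model of condition and batch, over 20272 of 58735 genes, with Benjamini-Hochberg adjustment over all of them in each comparison. CPM values are TMM-normalised, log2 CPM carries a prior count of 2, and RPKM divides by the deposited gene length; both were computed here. Members and gene lists were chosen with earlier results of these data known. Members described in full were CDKN1A, MDM2 and every member called in a treatment, in their mean or among the treatments; the others are given by ranges. Of the genes listed beside the members, 1 is not reported here. On counts simulated for the comparison of COX3 with the control over the 20272 genes, 99 of 100 genes changed 2-fold and 84 of 100 changed 1.3-fold were called, none in the wrong direction, with 12 false calls. The changed genes were drawn from genes with high counts only, and the simulated libraries shared no variation beyond the batch. Smaller changes, such as those of BTG2 and SESN1 after COX3 silencing, were not simulated. Deviations from the condition means correlated between libraries with the same replicate number (mean 0.514, lowest 0.168, over 10430 genes at a mean of 10 CPM or more), against 0.445 for the other number of a batch and -0.48 across batches, so the numbers were taken to pair the samples, and a fit with this number as a block instead of the batch was an alternative. No 2 replicates agreed within sampling noise (chi-square per degree of freedom 3.47 to 23.4 over 66 pairs). Other alternatives were no batch term, DESeq2 1.42.0, RLE size factors, library sizes from nuclear genes, no filter, a minimum count of 50, only the libraries compared, each batch alone, each library left out, COX3 replicate 4 drawn down to 23351110 counts and, added after seeing the data, removal of a trend on gene length and each treatment against the other 10. Promoter windows came from RefSeq (GRCh38.p14) and morpholino sequences from the study's methods. The study's other assays were not analysed here.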

Additional observations from a re-analysis of the deposited data

Results flagged for a closer look

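BTG2 differed among the 11 treatments in a test that does not use the control (adjusted p = 0.000118), and after COX3 silencing its log2 difference from the mean of the other 10 treatments was -0.19 (adjusted p = 0.0041). For SERTAD1 after ND5 silencing this difference was -0.28 (adjusted p = 0.0441), in a comparison added after seeing the data. Among 50 sets of 4 replicate libraries, 10 conditions for each of 5 members, 2 held a library far from the others, where chance gives about 1 in 20. BTG2 read 75.9 CPM in ND5 replicate 1 and 66.2 to 67.5 CPM in the other ND5 libraries. MDM2 read 197.6 CPM in ND3 replicate 2 and 189.5 to 189.8 CPM in the other ND3 libraries.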

How the results depend on the processing

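The 4 calls of a member in a treatment, made where 0.171% of all gene tests were called, became 1 without a batch term (0.0152%). They became 14 with DESeq2 (0.784% of all its gene tests) and 6 with the replicate block in place of the batch (0.4%). There were 0 in batch 1 alone and in batch 2 alone (0.102% in batch 2), where each condition has 1 or 2 libraries. They were 4 to 6 under the other 7 alternatives (0.151% to 0.793%). Among these, BTG2 after COX2 silencing was lost without a filter, which gained CDKN1A after COX3 silencing, and with only the libraries compared. With 1 library left out the calls were from 2 to 7. They were 2 without control replicate 3 (0.0744%) or 4 (0.0337%) and 7 without control replicate 1 (0.223%). The 58 alternative fits reuse the same libraries and mostly repeat the same few calls, so their 249 lower and 0 higher calls are not separate results. In the mean of the treatments DESeq2 called 3 members and the other alternatives 0. Among the treatments, 2 members were called by DESeq2, 4 without a filter and 0 in batch 1 alone or batch 2 alone, and BTG2 alone with each library left out. Between the batches 14 to 17 members were called under the alternatives and 13 to 16 with 1 library left out. The median of the members in the mean of the treatments stayed between -0.09 and -0.04. MDM2 in that mean was at 0.00 in batch 1 alone and -0.13 in batch 2 alone. The median after COX2 silencing was at 0.00 in batch 1 alone and -0.14 in batch 2 alone. CDKN1A after COX3 silencing was called without ATP6 replicate 2, COX2 replicate 2, ND3 replicate 2 or ND3 replicate 4 (adjusted p from 0.0415 to 0.0486), and SESN1 after CYTB silencing in 12 of 46 such fits. The replicate block changed no call but these 2. The number of members with a half-site was 6 by exact match and 14 with 1 mismatch allowed outside the fixed C and G. The cause of these changes was not tested. Low counts limit TIGAR and SPATA18, whose intervals are the widest, and 4 shared control libraries limit every comparison with the control.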
